A study of Mus musculus with 8 samples.

Results

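Synaptic vesicle proteins and the SNARE proteins that fuse the vesicle with the plasma membrane were followed as 8 named genes, Syp, Syn1, Sv2a, Vamp2, Snap25, Stx1a, Syt1 and Syt11, in N2a cells. The 8 genes were chosen by name and were all found among the 16279 genes of the authors' input RNA table, each with an adjusted p, and 2 of them also in the authors' list of differential m6A peaks, which names 1912 genes. N2a is a mouse neuroblastoma line. Cells received siRNA targeting Emg1 or a control siRNA and were harvested 48 h later. All libraries came from transfected cells, and each of the 4 groups had 2 libraries: m6A immunoprecipitation (IP) after Emg1 knockdown and after control, and input RNA after Emg1 knockdown and after control. Emg1 encodes a methyltransferase that modifies 18S ribosomal RNA, and the study asked how EMG1 influences m6A (N6-methyladenosine) in mRNA. Separate cultures are not stated for the replicate libraries, so the p-values measure a spread between libraries that may be technical.

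A neurotransmitter vesicle fuses when the vesicle SNARE protein synaptobrevin (Vamp2) zips together with the plasma membrane SNAREs syntaxin (Stx1a) and SNAP-25 (Snap25) into a tight helical bundle. Synaptotagmin (Syt1) on the vesicle binds calcium and triggers the final step, while synapsin (Syn1) tethers vesicles in a reserve pool and synaptophysin (Syp) and SV2A (Sv2a) are abundant membrane proteins of the vesicle. Neuroblastoma cells derive from the sympathoadrenal lineage, which stores and secretes catecholamines from dense-core vesicles with the same fusion machinery.

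Of the 8 genes, Syp and Syn1 rose in input RNA, and none fell by the authors' DESeq2 test, also at an unadjusted p under 0.05. Both lie on the X chromosome, and the upstream sequence of each is shown here because they were the 2 members that passed the test. The lines give the 250 bases before the start site, 5′ to 3′ on the strand of the gene, from RefSeq on GRCm38.p6, the assembly of the mm10 build. Capitals mark the left arm of the RE1 element (TTCAGCACC) and a cAMP response element (TGACGTCA) in Syn1, and GC boxes (GGGCGG) in Syp. The windows are chrX:20920919-20921168 on the minus strand for Syn1 and chrX:7638330-7638579 on the plus strand for Syp.
Syn1: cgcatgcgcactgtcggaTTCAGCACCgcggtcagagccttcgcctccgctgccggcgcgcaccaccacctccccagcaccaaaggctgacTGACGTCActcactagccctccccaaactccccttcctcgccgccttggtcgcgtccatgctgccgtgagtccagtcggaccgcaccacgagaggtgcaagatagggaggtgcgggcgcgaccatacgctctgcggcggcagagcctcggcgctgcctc
Syp: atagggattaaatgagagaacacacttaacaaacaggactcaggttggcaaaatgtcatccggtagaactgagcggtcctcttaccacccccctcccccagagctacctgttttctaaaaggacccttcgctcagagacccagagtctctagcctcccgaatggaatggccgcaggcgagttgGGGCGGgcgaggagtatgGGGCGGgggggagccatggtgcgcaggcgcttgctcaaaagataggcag

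RE1 is the binding element of REST, a repressor of neuronal genes in non-neuronal cells. TTCAGCACC lay 232 bases before the Syn1 start site and was present, on either strand, in 0.371% of the 32851 RefSeq promoter windows of 300 bases. Within the 250 bases before the start site, the stretch shown above, the share was 0.301%. TGACGTCA lay 159 bases before the Syn1 start site and was present in 1.79% of windows, and in 1.55% within the 250 bases. GGGCGG, the letters of the GC box, began 67 and 49 bases before the Syp start site. It was present in 35.7% of windows, and in 32.7% within the 250 bases. Of the 6 members with an entry in the promoter table, only Syn1 had the RE1 arm and the cAMP response element, and the 5 others had a GC box in 1 or more of their windows. The 3 motifs do not overlap in these windows. They are matches of letters, and whether a factor binds there was not measured.

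The input table gives, for each gene, the normalized count averaged over libraries, a log2 fold change with its standard error (SE) and a p-value adjusted over the genes tested. Values of single libraries are not part of it, and replicate error enters only through the SE. The file does not name the direction of the change. Emg1 had a negative value, -1.73 ± 0.11 (log2, SE; adjusted p = 3.37e-54) in the authors' deposited table, and all fold changes are therefore read as knockdown over control. A gene was called where the adjusted p was under 0.05. By that rule 32.6% of the 12807 genes with an adjusted p were called, 17.1% higher and 15.5% lower after knockdown. Among the 5050 genes whose mean lay within the range of the 8 members, 1220 to 7013 normalized counts, 45.8% were called, 27.0% higher and 18.9% lower.

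The members were well measured genes of this line. Their means lay between percentiles 64.5 and 95.5 of all genes in the table, and their SEs between 0.06 and 0.11, with a median of 0.09 against 0.08 for all genes in the same range of mean. These means are not scaled to transcript length, so they do not rank the genes by abundance. The precision of each gene is read from its SE. Of 15 sympathoadrenal and neuroblastoma markers, 14 were matched, with means of 42.6 to 21840, and 13 of these had a mean of at least 100. The lowest means were those of Dbh, at 42.6, and Th, at 107 normalized counts in the authors' deposited table. Of the 14 matched markers, 9 rose and 2 fell. Chga, a dense-core granule protein, rose by 0.41 ± 0.06, Th, the rate-limiting enzyme of catecholamine synthesis, fell by 1.06 ± 0.32 and Stmn2, a neuronal microtubule regulator, fell by 0.65 ± 0.06 on the log2 scale in the authors' deposited table. Of 32 markers of fibroblasts, leukocytes, endothelium, epithelium and glia, 20 were matched and 15 of these had a mean below 100. The 5 above were Pdgfra at 1357, Cd74 at 930, Mbp at 688, Pecam1 at 407 and Pdgfrb at 332 normalized counts in the authors' deposited table. Of these, Pdgfrb fell by 0.98 ± 0.19 and Cd74 fell by 0.74 ± 0.12 on the log2 scale in the authors' deposited table. The part of these markers in the members' values was not tested. In bulk RNA, fewer cells of a type and less RNA per cell cannot be told apart.

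The proteins of the vesicle membrane and surface held both called members. Syp, on chromosome X at 7638580 to 7653256, had a mean of 3047 normalized counts and stood at 0.23 ± 0.07 (log2, SE; adjusted p = 0.00717) in the authors' deposited table. That is 117% of control, with a 95% interval of 106 to 129%. Syn1, on chromosome X at 20860511 to 20920918, had a mean of 1220 and a fold change of 0.30 ± 0.11 (log2, SE; adjusted p = 0.0178) in the authors' deposited table. It stood at 123% of control, with an interval of 107 to 142%. Both intervals began less than 0.1 above zero on the log2 scale, at 0.087 for Syp and 0.092 for Syn1. At an adjusted p under 0.01, met by 12.3% of genes as rises, Syp passed and Syn1 did not.

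Sv2a, which encodes the vesicle glycoprotein that binds the drug levetiracetam, was the only member with a negative value. It had a mean of 1446 and a fold change of -0.12 ± 0.10 (log2, SE; adjusted p = 0.353) in the authors' deposited table, and its interval ran from 80.7 to 105% of control. The gene lies on chromosome 3 at 96181227 to 96195183.

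None of the 3 core fusion SNARE genes was called. Vamp2, the vesicle SNARE, on chromosome 11 at 69088528 to 69092381, had a mean of 1759 and a fold change of 0.15 ± 0.09 (log2, SE; adjusted p = 0.196) in the authors' deposited table. Its interval, 98.2 to 126% of control, was the highest reaching among the members that did not pass. Snap25, which contributes a pair of helices to the fusion bundle, lies on chromosome 2 at 136713439 to 136782428. In the authors' deposited table it had a mean of 3104 and a fold change of 0.03 ± 0.09 (log2, SE; adjusted p = 0.837). Its interval was 90.4 to 115% of control. Stx1a, the plasma membrane syntaxin, on chromosome 5 at 135023482 to 135051100, had a mean of 1394 and a fold change of 0.09 ± 0.10 (log2, SE; adjusted p = 0.568) in the authors' deposited table. Its interval was 92.5 to 122% of control.

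The 2 synaptotagmins were the most precisely measured members and were not called. Syt1, the calcium sensor for fast release, on chromosome 10 at 108497650 to 109010980, had a mean of 3784 and a fold change of 0.01 ± 0.07 (log2, SE; adjusted p = 0.925) in the authors' deposited table. The interval was 91.7 to 111% of control. Syt11, a synaptotagmin that does not bind calcium, on chromosome 3 at 88744699 to 88775159, had the highest mean of the 8, 7013, and stood at 0.05 ± 0.06 (log2, SE; adjusted p = 0.537) in the authors' deposited table. Its interval was 95.8 to 112% of control.

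**Figure D1:**
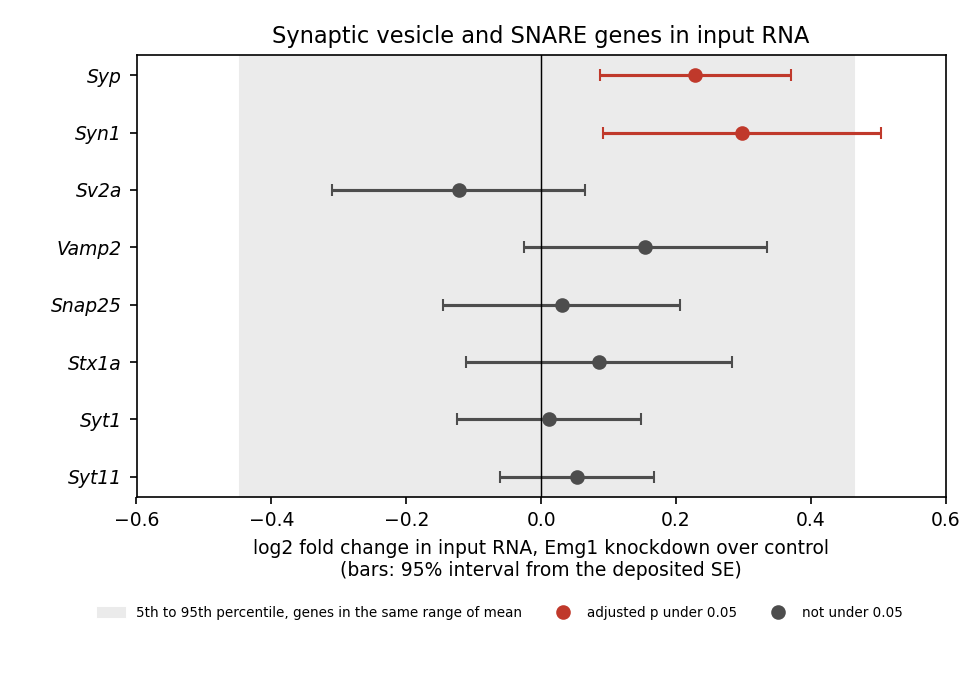
Log2 fold change of the 8 members in input RNA, Emg1 knockdown over control (x axis), with bars for the 95% interval from the deposited SE; the grey band spans the 5th to 95th percentile, -0.45 to 0.46, of the 5050 genes in the same range of mean. The bars of Syp and Syn1 lie above 0, and those of the other 6 genes cross it.

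Together the 8 values were small and mostly positive. They ran from -0.12 to 0.30, with 7 positive and 1 negative and a median of 0.07 on the log2 scale. The median over all tested genes was -0.0023, and that of the 5050 genes in the same range of mean was 0.04, of which 55.9% were positive. The median size of change, irrespective of sign, was 0.10 for the members and 0.18 for those genes. The 25.0% of members that rose was close to the 27.0% of genes in that range that rose, so the count of 2 does not set the 8 genes apart. For the 6 genes that did not pass, the 95% intervals lay between 80.7 and 126% of control.

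**Figure D2:**
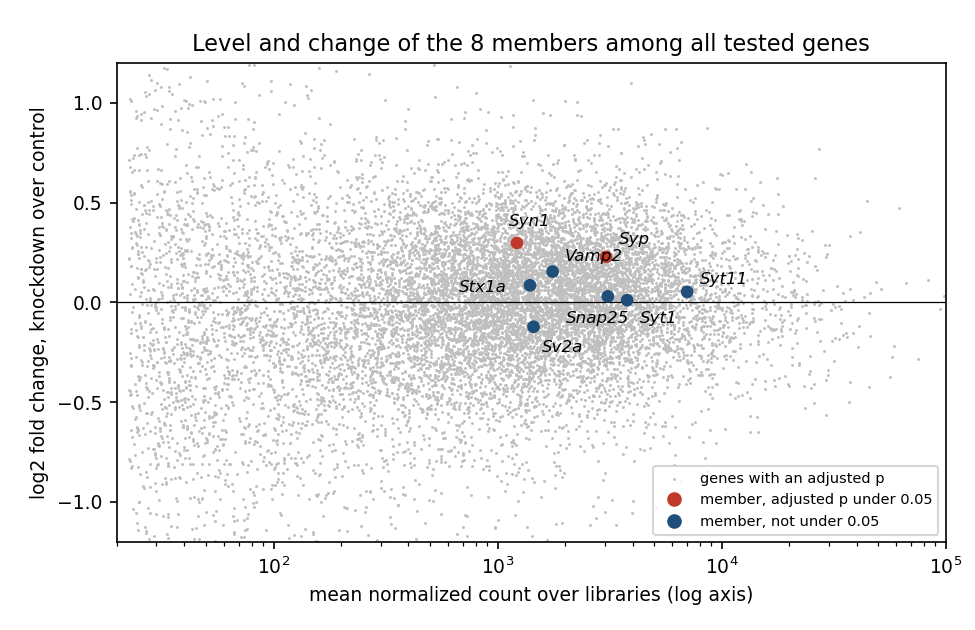
Mean normalized count (x axis, log scale) against log2 fold change, Emg1 knockdown over control (y axis), for genes with an adjusted p, of which 163 lie outside the axes. The 8 named members sit at means of 1220 to 7013 and between -0.12 and 0.30, with Syp and Syn1 in red as the 2 that passed.

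Of the 2 called genes, Syn1 had neighbours that could share reads. It overlaps Araf, a kinase gene, by 11 bases and contains Timp1, an inhibitor of metalloproteases, within its span. In the authors' deposited table Araf fell by 0.24 ± 0.09 (log2, SE; adjusted p = 0.0236), while Timp1, with a mean of 36.0, did not pass at -0.30 ± 0.53 (adjusted p = 0.720). The libraries were made with a stranded kit, but the sources used here do not say whether counting used strand. No gene in RefSeq overlaps the span of Syp. As both genes are X-linked, the 138 X-linked genes in the members' range of mean were set beside them: 21.0% rose and 22.5% fell, with a median of -0.00027 on the log2 scale.

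Differential m6A peaks were listed on 2 members, Syt11 and Stx1a, whose RNA was not called in input. That is 25.0% of members, against 11.7% of all genes in the input table and 21.9% of genes in the members' range of mean. The peak list holds 2114 differential peaks, 53.1% with a negative change, and neither header nor label says which condition was divided by which. The sign is given as deposited and cannot be read as gain or loss of m6A after knockdown. Only differential peaks were analysed here, so the 6 members without one may carry m6A that did not differ.

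On Syt11 the peak was strongly enriched and its change was among the smallest of the list. The authors' deposited table gives an IP over input enrichment of 31.8, at percentile 94.7 of all differential peaks, where the median was 5.525. Its change of -0.23 (log2, false discovery rate 0.000141) had a size at percentile 0.946 of the list in the authors' deposited table. The peak runs on mm10 chromosome 3 from 88761843 to 88772599 on the minus strand and has 2 blocks of 309 and 707 bases. The first block begins at the very base that the RefSeq promoter table gives as the start site, 88772599, which lies inside the outer end of the gene's full span, and the second lies inside the gene, 17144 bases before its annotated end. In the first 50 transcribed bases, the stretch of the peak for which sequence was used here, neither GGAC nor GAAC, short forms of the m6A consensus, was found on the sense strand. They were found in the same stretch of 30.9% of the RefSeq windows.

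On Stx1a the peak was weakly enriched and its change was of middling size. Enrichment was 2.37, at percentile 21.4, and the change was -0.79 (log2, false discovery rate 7.24e-05), at percentile 55.5 by size, in the authors' deposited table. The median of all negative changes was -0.72. The peak runs on mm10 chromosome 5 from 135023572 to 135041935 on the plus strand and has 5 blocks of 39, 78, 100, 75 and 5 bases, 297 in all, or 1.62% of its span. Peaks with at least 5 blocks made up 5.53% of the list. It begins 90 bases after the start site and ends 9165 bases before the end of the gene. The RNA of the gene stood at 0.09 ± 0.10 (log2, SE) in input and that of Syt11 at 0.05 ± 0.06 in the authors' deposited table. The 2 peak changes come without an error and were not compared by a test.

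**Figure D3:**
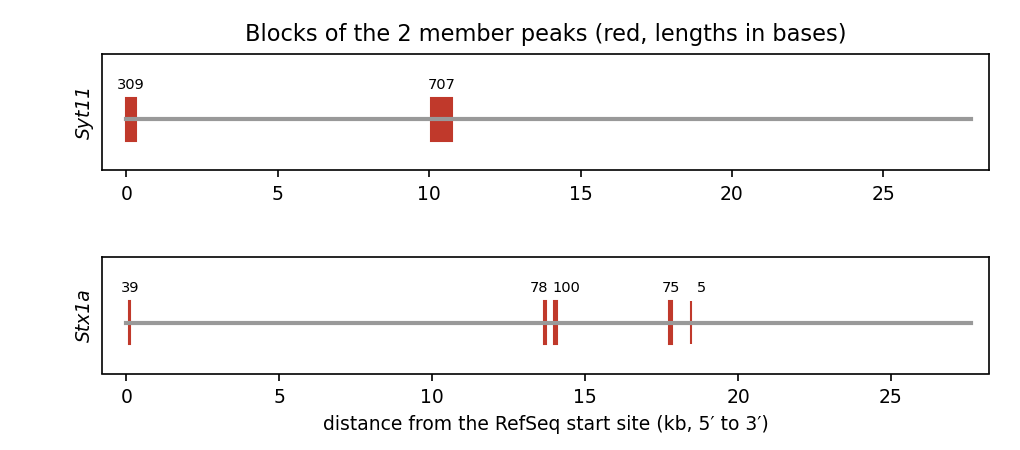
Blocks of the differential m6A peaks on Syt11 (above) and Stx1a (below) against distance from the RefSeq start site in kb, with block lengths in bases and the grey line drawn to the end of the gene; short blocks are drawn with a minimum line width. The Syt11 peak has a block of 309 bases at the start site and one of 707, and the Stx1a peak has 5 blocks of 5 to 100 bases.

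**Figure D4:**
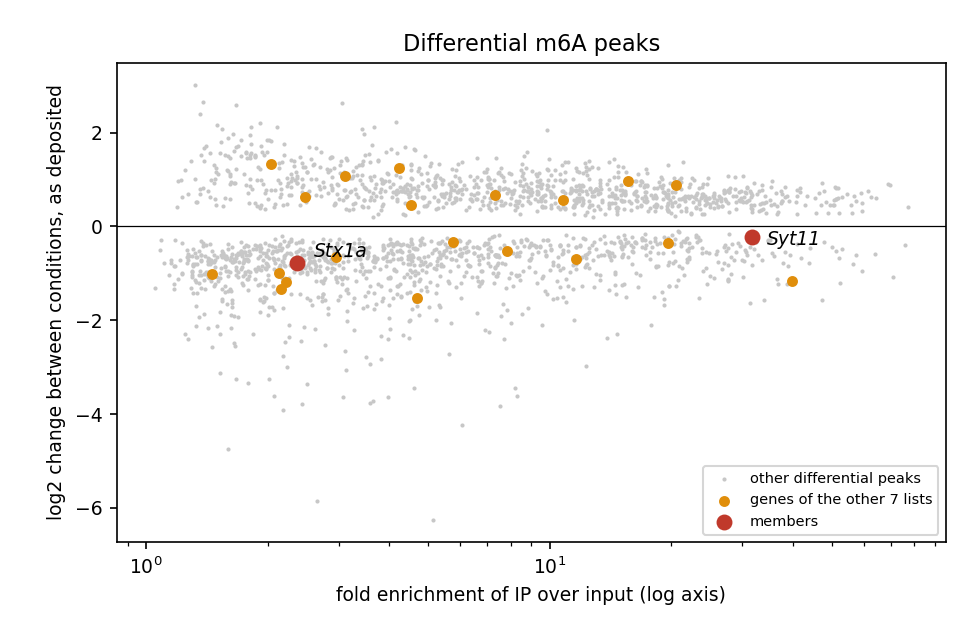
Fold enrichment of IP over input (x axis, log scale) against log2 change between conditions as deposited (y axis) for the 2114 differential peaks. Syt11 lies at 31.8 and -0.23 and Stx1a at 2.37 and -0.79 (red), and the 20 peaks on genes of the other 7 lists (orange) lie on both sides of 0.

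Several close relatives of the members were called. Beside Syn1 at 0.30 ± 0.11, its relative Syn2 rose by 0.79 ± 0.07 (adjusted p = 4.02e-29), while Syn3, with a mean of 145, stood at 0.63 ± 0.27 in the authors' deposited table and did not pass (adjusted p = 0.0614). Beside Sv2a at -0.12 ± 0.10, Sv2c rose by 0.78 ± 0.07 (adjusted p = 2.78e-30) in the authors' deposited table, and the third form, Sv2b, had a mean of 2.91 and no adjusted p. The 95% intervals were -0.31 to 0.07 for Sv2a and 0.65 to 0.91 for Sv2c. Among the synaptogyrins, relatives of Syp in the vesicle membrane, Syngr1 fell by 0.58 ± 0.08 and Syngr3 by 0.35 ± 0.10, and Syngr2 stood at 0.0047 ± 0.08 in the authors' deposited table. Vamp1, the synaptobrevin closest to Vamp2, rose by 0.50 ± 0.15 (adjusted p = 0.00501), and Vamp3, the widely expressed form, fell by 0.29 ± 0.08 (adjusted p = 0.00103) in the authors' deposited table. No difference between relatives was tested, since both values come from the same libraries and the covariance of their errors is not given.

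Across the wider machinery, 7 further lists sorted by role held 148 genes, of which 127 were matched and 117 had an adjusted p. Of these 15 rose and 23 fell, 12.8% and 19.7%, against 17.1% and 15.5% of all tested genes. Among genes in the members' range of mean, in which not all list genes lie, 27.0% rose and 18.9% fell. The median of the 117 list genes was -0.05 on the log2 scale. The lists were written with earlier results of these data known. From here on, the genes named are the 2 highest and 2 lowest called genes of each list with a mean of at least 100, and those with a differential peak. The relatives of the members above were named by family, and Vamp1, Syn3, Sv2b and Syngr2 fall outside that rule.

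The next counts are to be read against the 17.1% of all tested genes that rose and the 15.5% that fell. Among 21 other vesicle proteins with an adjusted p, 5 rose and 5 fell, with Syn2 and Sv2c at the top and Syngr1 and Syngr3 at the bottom. Rab3a, a small GTPase that attaches vesicles to the release site, rose by 0.34 ± 0.11 (adjusted p = 0.00547), and Rab3d, the form typical of secretory granules, fell by 0.31 ± 0.10 (adjusted p = 0.00875) in the authors' deposited table. Among 12 other synaptotagmin and Doc2 genes 2 rose and 1 fell. Syt17 rose by 0.46 ± 0.14, Syt6 rose by 0.25 ± 0.07 and Syt14 fell by 0.19 ± 0.08 in the authors' deposited table, a fall that did not pass at an adjusted p under 0.01 or under adjustment over all genes. Of 9 other exocytic SNARE genes, Stx3 rose by 0.58 ± 0.23 and Snap29 by 0.37 ± 0.12 in the authors' deposited table, and Vamp3 was the 1 that fell.

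Regulators of the SNARE cycle held the steepest called falls of the 7 lists at a mean of at least 100. Of 17 regulators 5 were lower and 2 higher, beside 15.5% lower and 17.1% higher among all tested genes. In the members' range of mean these shares were 18.9% and 27.0%. Snapin, a SNAP-25 binding protein that also belongs to a lysosome positioning complex, fell by 0.82 ± 0.14 (adjusted p = 4.55e-08), and Sncg, gamma-synuclein, fell by 0.81 ± 0.16 (adjusted p = 8.05e-06) in the authors' deposited table. Cplx2, a complexin that binds the assembled SNARE bundle, rose by 0.46 ± 0.08 (adjusted p = 3.00e-07), and Unc13a, the priming factor Munc13-1, rose by 0.19 ± 0.06 (adjusted p = 0.00616) in the authors' deposited table. In the active zone list 3 of 13 rose and 1 fell, counts to be read against the same shares of all tested genes. Bsn, which encodes the giant scaffold protein bassoon, rose by 0.65 ± 0.10 (adjusted p = 1.05e-08), Rims2 rose by 0.31 ± 0.09 and Rims3 fell by 0.42 ± 0.11 in the authors' deposited table.

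Lists for retrieval and constitutive fusion held 10 falls and 1 rise. These counts are to be read against the 15.5% of all tested genes that fell and the 17.1% that rose. In the members' range of mean 18.9% fell and 27.0% rose. Of 23 vesicle endocytosis genes, 4 fell and 0 rose in the authors' DESeq2 fit, where 1 rise was found at an unadjusted p under 0.05. Sh3gl3, an endophilin, fell by 0.44 ± 0.11 (adjusted p = 0.000613), and Ap2b1, a subunit of the clathrin adaptor at the plasma membrane, fell by 0.28 ± 0.07 (adjusted p = 0.000455) in the authors' deposited table. The Golgi and endosomal SNARE list held 22 genes, of which 6 fell and 1 rose, and at an adjusted p under 0.01 the counts were 2 and 0. Stx7, a syntaxin of late endosomes, fell by 0.37 ± 0.09, Bnip1 fell by 0.36 ± 0.13 and Stx16, a syntaxin of the trans-Golgi network, rose by 0.23 ± 0.08 in the authors' deposited table.

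**Figure D5:**
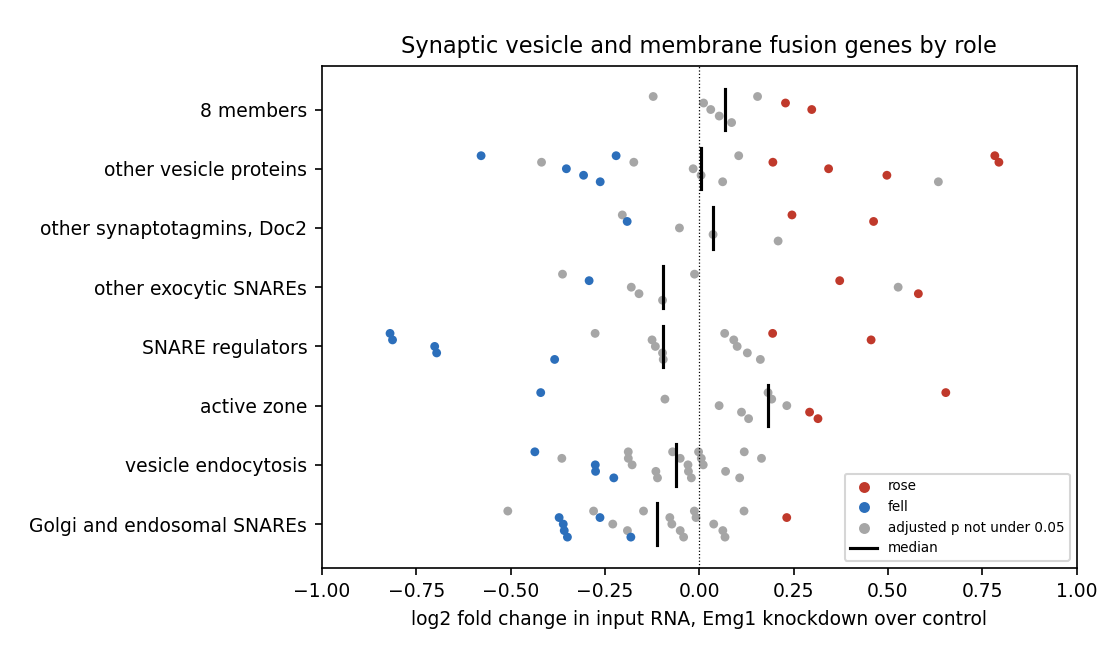
Log2 fold change in input RNA, Emg1 knockdown over control (x axis), of each gene with a mean of at least 100 in the 8 members and the 7 lists sorted by role, with black bars for medians. Red points rose and blue points fell at an adjusted p under 0.05; the members lie between -0.12 and 0.30, and the SNARE regulators reach -0.82.

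Differential m6A peaks were listed for 18 of the 127 matched genes of these lists, 14.2%, against 11.7% of all genes in the input table and 21.9% of genes in the members' range of mean. Their 20 peaks had 11 negative and 9 positive changes, against 53.1% negative over the whole list, so neither count sets these genes apart. Negative-change peaks were on Syt6 (-0.34), Sv2c (-0.36), Ppfia1 (-0.52), Rab3a (-0.66), Cplx1 (-0.69), Ap2m1 (-1.0), Bsn (-1.16), Cltb (-1.19), Stx7 (-1.34) and Stx4a (-1.52), with 1 of the 2 on Sec22b (-1.01), in the authors' deposited table. Positive-change peaks were on the other site of Sec22b (0.45), Stx2 (0.57), Snapin (0.62), Stx5a (0.68), Gosr1 (0.88), Sec22a (0.96 and 1.08), Syt5 (1.25) and Rab3d (1.34) in the authors' deposited table. The peak on Bsn was the most enriched of these, at 39.9, and the negative-change peak on Sec22b the least, at 1.46, in the authors' deposited table. Of the 11 genes with a negative-change peak 4 rose and 1 fell in input, and of the 8 with a positive-change peak 0 rose and 4 fell, while the others did not pass. At an unadjusted p under 0.05 in the authors' DESeq2 fit the count of rises among those 8 was also 0. Over the whole peak list, 39.2% of the 1010 tested genes with a negative-change peak rose in input and 12.8% fell, and of the 924 with a positive-change peak 15.3% rose and 24.2% fell, so this direction is not particular to the vesicle and SNARE lists. The peak change may or may not use the input reads, which the sources used here do not say, so the 2 directions are given side by side.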

How the data were processed

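Poly(A) RNA from N2a cells was subjected to m6A IP, and stranded libraries of IP and input RNA were sequenced, per the labels' protocols, with 8 libraries in 4 groups of 2. Trimmomatic, HISAT2 and DESeq2 were used with mm10, per the submitters' processing notes; the sources used here name no read counter, annotation, peak caller or tool version. In the authors' DESeq2 table, per the file headers, the mean is a signal (normalized counts averaged over libraries), the fold change and SE are log2 values, the Wald statistic is a score, and the p-value and adjusted p were deposited for 16279 and 12807 genes. In the peak list, per the file headers, the authors deposited the enrichment as a ratio, the change as a log2 value, and its false discovery rate as a score on the log10 scale.

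Neither table has values per library, so depth is unknown, no model was refitted and no replicate could be left out. The deposited adjusted p equalled a Benjamini-Hochberg adjustment to within 1.5e-15. Computed here were 95% normal intervals from the SE, counts by list, and positions against RefSeq (GRCm38.p6). The rule for named genes is given in the report. Members and lists were chosen with earlier results of these data known. Alternatives were other thresholds, adjustment over all genes, centring on the median change of well counted genes (mean of at least 100), that mean as a filter, a test against an absolute log2 change of 0.2, and stricter peak filters. The steps that recompute Wald p-values against a change of 0 and adjust them were checked on simulated data. The test against 0.2 was not checked in that way. Scripts ran in Python 3.11.15 with scipy 1.17.1, pandas 2.3.3, matplotlib 3.10.9 and numpy 2.4.6.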

Additional observations from a re-analysis of the deposited data

How the results depend on the processing

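At an adjusted p under 0.01 the count of members that rose was 1, Syp, in place of 2. Neither rise passed a test against an absolute log2 change of 0.2: Syp at 0.23 had an adjusted p of 0.874 and Syn1 at 0.30 one of 0.614. Under adjustment over all genes, centring on a median of 0.0077, a minimum mean of 100 and a threshold of 0.10, 2 members rose and 0 fell, and the 2 peaks stayed in the list at false discovery rates under 0.01 and 0.001, at enrichments of at least 2 and by position. In the other 7 lists the 15 rises ranged from 11 to 19 and the 23 falls from 16 to 29 over those settings and the threshold of 0.01. In single lists 10 counts moved by over 1.5 times. An adjusted p under 0.01 left 0 of 2 rises among exocytic SNAREs, 0 of 1 rise and 2 of 6 falls among Golgi and endosomal SNAREs, 3 of 5 falls among other vesicle proteins and 0 of 1 fall among synaptotagmins. Adjustment over all genes left 3 and 0 of those last falls and 1 of 2 exocytic SNARE rises. A threshold of 0.10 gave 3 exocytic SNARE falls in place of 1 and 1 endocytosis rise in place of 0. No paired analysis was possible because the tables hold no values per library, and for the same reason no library was left out. Precision is limited by 2 libraries per group.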
